A study of Mus musculus with 9 samples.

Results

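Gene expression was compared between D2.OR cells kept in 3D gels of fibrillar collagen I and the same cells kept in non-fibrillar collagen I. The members of the comparison are the 3 arrays titled fibrillar collagen and the 3 titled non-fibrillar collagen, 6 of the 9 arrays of the series, and all 19938 genes that had a probe set with a single gene symbol, with 1 probe set per gene. D2.OR is a mouse mammary tumor cell line, unmodified as far as its labels go, so every result rests on 1 line of cells. Both groups were grown in 3D gels of the same collagen type and differed, by their labels, only in its form; no time in culture, collagen concentration or added agent is stated. The title of the series ties fibrillar collagen to the protection against mammary cancer that a pregnancy gives. The other 3 arrays are titled Matrigel, a basement membrane extract, but their growth label repeats that of the non-fibrillar group. Their values appear below only as levels beside the collagen groups.

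Collagen I is the main structural collagen of the mammary stroma. Its triple-helical molecules assemble side by side into banded fibrils, which are stiffer than unassembled or degraded molecules and present binding sites for integrins and discoidin domain receptors in an ordered array. Cells read the form of the collagen through these receptors and through the tension they can build against it, and both inputs reach growth, survival and inflammatory signalling.

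The arrays carried log2 expression values between 2.15 and 14.06, with medians from 5.98 to 6.04. Pearson's r over genes was 0.994 to 0.996 for the 6 pairs of arrays within a group and 0.993 to 0.996 for the 9 pairs between the groups. The keratins Krt8 and Krt18 of simple epithelia read between 13.22 and 13.33 and between 12.82 and 12.92 on the 6 arrays. E-cadherin Cdh1 read between 9.001 and 9.11, while Epcam and Krt19 were near the array medians, at 6.05 to 6.24 and 5.36 to 5.45. Vimentin (Vim), a mesenchymal filament, was at 13.25 to 13.37. Nothing in the labels names separate cultures behind the replicates, so the p-values below speak for the variation among these arrays alone, part or all of which may be technical.

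Of the 19938 genes, 541 (2.71%) had a higher level and 736 (3.69%) a lower one with fibrillar collagen, 1277 (6.40%) in all, at a Benjamini-Hochberg adjusted p under 0.05 in limma, a linear model fitted to every gene with pooled information on variance. These genes are called "higher" or "lower" below, the 3 shares are the background for each gene list, and every difference is the fibrillar mean minus the non-fibrillar mean on the log2 scale, with limma's standard error (SE) and n = 3 arrays per group. The differences were small. Among called genes the median size was 0.30, and 35 were at least 1.5-fold higher and 51 at least 1.5-fold lower. The 3 arrays of one collagen lay wholly above the 3 of the other for 5024 genes (25.2%), of which 2305 (11.6%) had fibrillar collagen above. The 25 largest changes in each direction were picked among called genes of this kind. For those genes the lack of overlap was a condition of the choice and lends their calls no support. The median difference over all genes was 0.008. With 1 array left out, 76 to 216 genes were called higher and 74 to 353 lower, fewest of both without fibrillar replicate 3.

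Fam102a, an estrogen-responsive gene, had the largest increase, and its values were 9.63, 9.76 and 9.79 in fibrillar against 8.64, 8.58 and 8.56 in non-fibrillar collagen. Its Matrigel mean was 9.86. Ahnak2, a giant scaffold protein of the membrane cytoskeleton, read 11.19, 11.21 and 11.22 against 10.46, 10.54 and 10.53. The arrays of each group nearly coincided, and the difference was 0.70 ± 0.037 (adjusted p = 0.0041). Anpep, an aminopeptidase of the cell surface, read 10.001, 10.13 and 10.25 against 9.03, 9.17 and 9.33, and Antxr1, an adhesion receptor that binds collagen, 10.25, 10.28 and 10.36 against 9.62, 9.57 and 9.75. In both genes replicate 3 was the highest of its group in either collagen. All 4 of these genes stayed called whichever array was left out.

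**Figure D1:**
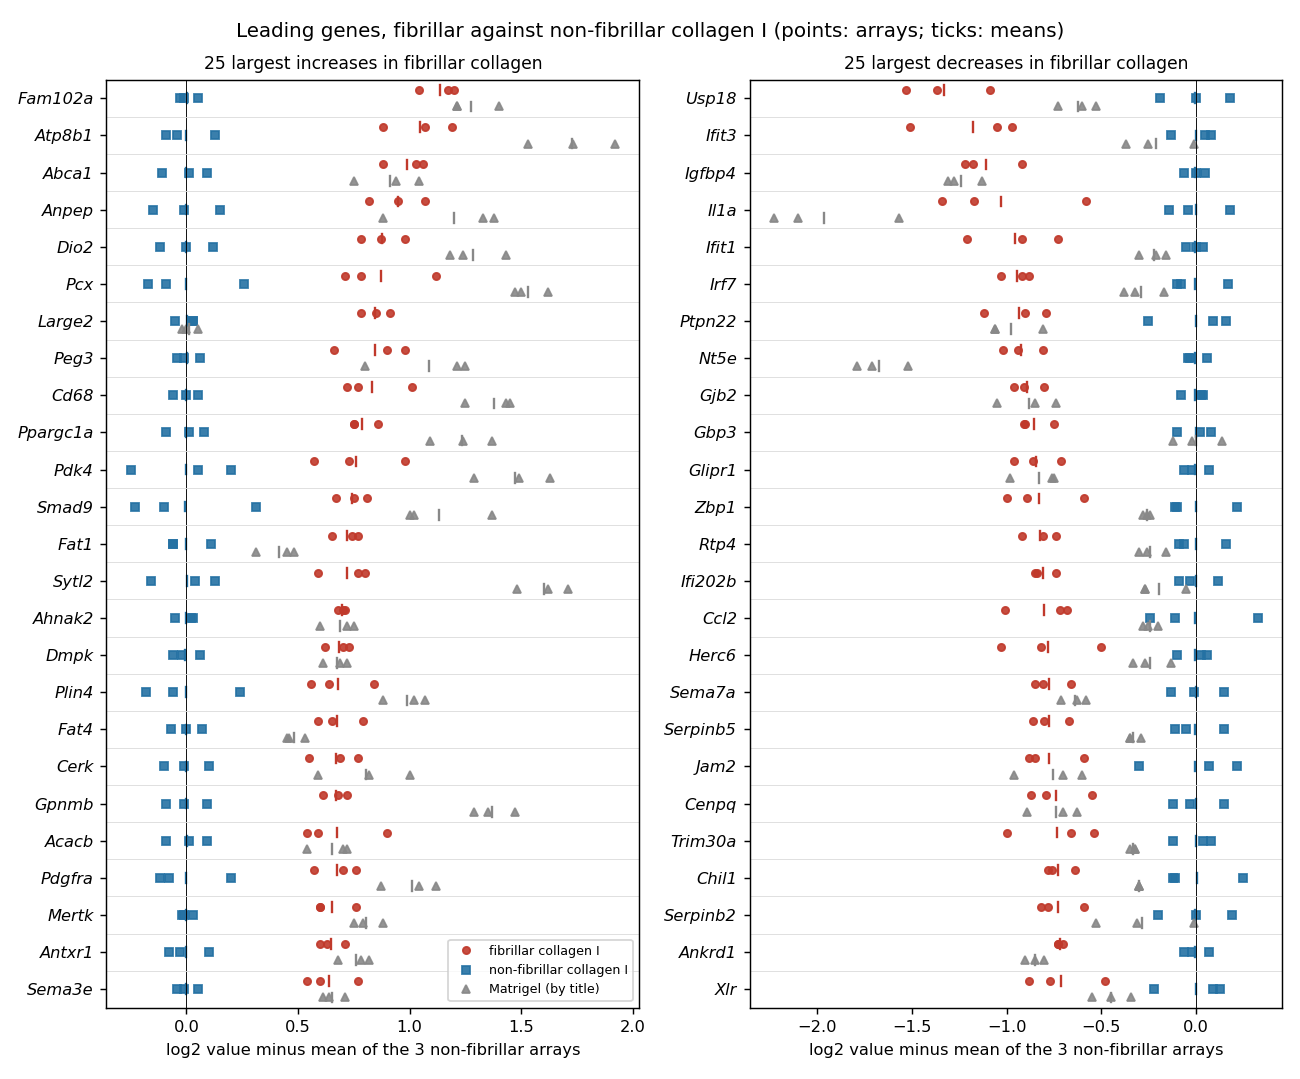
The 25 largest increases (left) and the 25 largest decreases (right) among called genes whose collagen groups do not overlap, as log2 values minus the mean of the 3 non-fibrillar arrays; points are arrays and ticks are group means. Fibrillar (red) and non-fibrillar (blue) arrays separate for every gene because the genes were picked that way. The Matrigel arrays (gray) lie beyond the fibrillar ones for genes such as Atp8b1 and Nt5e but with the non-fibrillar ones for Large2 and Gbp3.

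The direction of a difference went with the length of the gene. The genomic span of a gene, from its start to its end in the RefSeq table for GRCm38.p6, was known for 19919 genes (99.9%) and had a median of 47.8 kb among genes called higher, 12.7 kb among those called lower and 17.7 kb over all. The genes above the median level were split by span into 5 equal groups. The shortest (median 4.11 kb) held 29 higher and 211 lower genes with a median difference of -0.053. The longest (median 110 kb) held 225 higher and 53 lower genes with a median of 0.042. The median deviation of the longest group minus that of the shortest was 0.074, 0.066 and 0.016 on the fibrillar arrays and -0.022, -0.039 and -0.078 on the non-fibrillar arrays, so the groups did not overlap in this measure either. RNA quality and the amount of RNA were not used here, and their part in this trend was not tested. A correction for span and level, added after the data were seen, subtracted from each array its median deviation among genes of like span and level; it left 575 genes higher and 557 lower (50.8% of calls higher, against 42.4% without it), and 921 of the 1277 calls were kept. Corrected counts are given below for lists with more than 5 calls where they differ by more than 1.5 times. The background shares take no account of span or level. Above the median level, 11.3% of the longest group were higher and 10.6% of the shortest lower. In the middle group by span (median 23.2 kb) 4.87% were higher and 7.33% lower. A list of bright genes can therefore exceed the background without exceeding genes of like level. The laminin and guidance lists had median spans of 106 and 107 kb. They held 7 and 8 higher genes before the correction and 5 and 6 after it. Receptor tyrosine kinases (57 kb) kept 7, and collagen genes (45.6 kb) went from 6 to 7.

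**Figure D2:**
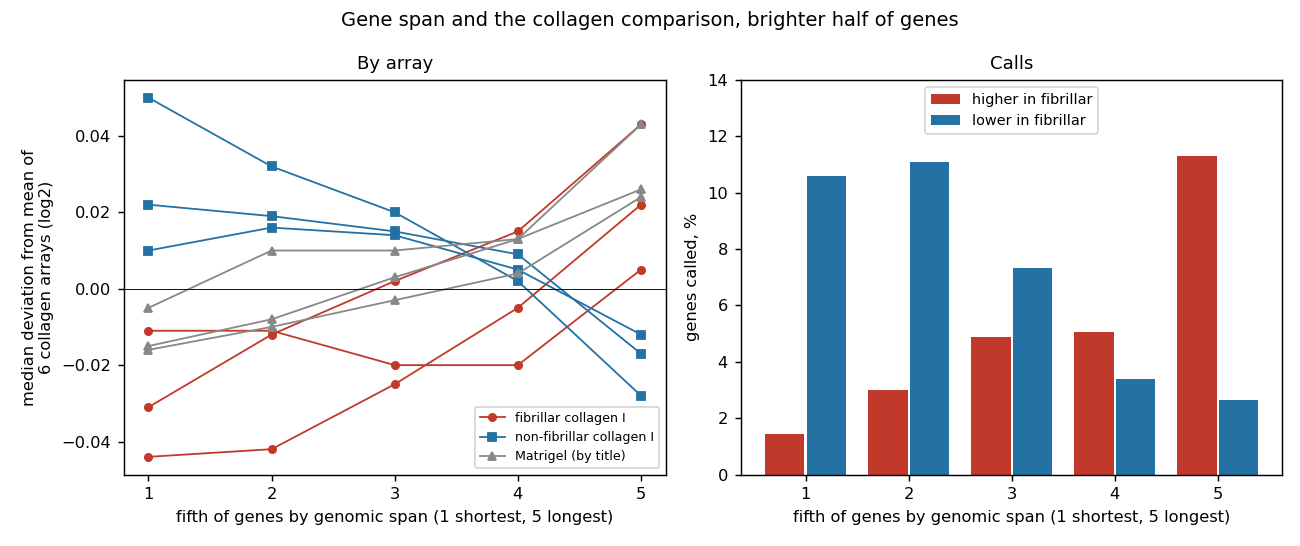
Left, the median deviation of each array from the mean of the 6 collagen arrays (log2) in 5 equal groups, by genomic span, of the genes above the median level. Right, the percentage of genes called higher or lower in fibrillar collagen in each group; fibrillar arrays (red) end higher for the longest genes than for the shortest, non-fibrillar arrays (blue) end lower, and calls turn from mostly lower to mostly higher.

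Genes of the antiviral state were lower in fibrillar collagen. Interferons act on their receptors through STAT and IRF9 factors, which bind the interferon-stimulated response element (ISRE) in promoters and switch on effectors that block viral RNA, modify proteins with ISG15 or present antigens. Of 54 measured antiviral effectors, 28 were lower (51.9%, against a background of 3.69%) and 26 did not pass, with a median difference of -0.34 against 0.008 over all genes. With single arrays left out, 6 to 20 were lower, fewest without fibrillar replicate 3 or non-fibrillar replicate 2. Of 37 sensors and signalling genes of the same system 6 were lower (1 or 2 with an array left out) and 31 did not pass.

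The ISRE core was searched in RefSeq promoters of GRCm38.p6, from 250 bases before to 50 after a start, as a pair of GAAA repeats set 2 bases apart, on both strands. It was present in 11 of the 23 antiviral effectors called lower that had a promoter in the table (47.8%), in 5 of the 19 that did not pass (26.3%), in 40 of all 594 genes called lower (6.73%), in 6 of the 424 called higher (1.42%) and in 607 of all 15614 genes with a promoter (3.89%). The 5 stretches below lie wholly before the start and are shown because they hold this element in Ifit genes, Gbp genes and the virus tether Bst2, all called lower; capitals mark 1 match in each, which reads as a pair of TTTC repeats where it lies on the reverse strand. The coordinates are chr19:34583387-34583436 (plus strand) for Ifit3, chr19:34640784-34640833 (plus) for Ifit1, chr3:142559985-142560034 (plus) for Gbp3, chr3:142530263-142530312 (plus) for Gbp7 and chr8:71537567-71537616 (minus) for Bst2.
Ifit3: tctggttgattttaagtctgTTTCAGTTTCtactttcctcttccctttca
Ifit1: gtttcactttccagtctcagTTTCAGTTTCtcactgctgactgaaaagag
Gbp3: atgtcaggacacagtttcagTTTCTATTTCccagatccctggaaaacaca
Gbp7: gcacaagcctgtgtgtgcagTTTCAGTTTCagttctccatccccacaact
Bst2: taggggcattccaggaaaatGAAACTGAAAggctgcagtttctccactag
In Ifit1, Gbp3 and Bst2 a second match lies within the stretch and is printed in lower case up to where it meets the capitals; in Gbp3 and Bst2 it overlaps the marked one. A match describes the letters only, and binding was not measured. Other elements were searched in the same promoters. GAS (TTCNNNGAA, N being any base) was in 8 of the 23 antiviral effectors called lower (34.8%) and 2 of the 19 that did not pass (10.5%). Among all genes with a promoter its share was 8.99%, against 8.08% of those called lower and 7.31% of those called higher. For CRE (TGACGTCA) these shares were 2.72%, 3.54% and 1.65%.

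Irf7, the transcription factor that amplifies type I interferon production, read 7.44, 7.29 and 7.40 in fibrillar and 8.24, 8.22 and 8.49 in non-fibrillar collagen. The difference was -0.94 ± 0.083 (1.92-fold lower, adjusted p = 0.0053). The cytosolic RNA sensors Ifih1 (-0.56 ± 0.073, adjusted p = 0.013) and Dhx58 (-0.51 ± 0.091, adjusted p = 0.029), the nucleic acid sensor Zbp1 (-0.83 ± 0.131, adjusted p = 0.021) and the endosomal RNA receptor Tlr3 (-0.26 ± 0.043, adjusted p = 0.023) were lower as well. Irf9, the DNA-binding part of the interferon-activated complex, was called at -0.34 ± 0.074 (adjusted p = 0.047), but not with replicate number as a block (adjusted p = 0.064) or after the correction for span and level (adjusted p = 0.0996). Of these genes Irf7 alone stayed called in all 6 refits that left out 1 array; the others lost their call in 5 or 6 of them, with adjusted p up to 0.159.

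Among the effectors, Ifit3, which binds viral RNA together with Ifit1, read 6.91, 6.99 and 6.45 in fibrillar and 7.83, 8.04 and 8.01 in non-fibrillar collagen. Fibrillar replicate 3 was the lowest of all, and the difference was -1.17 ± 0.143 (2.26-fold lower, adjusted p = 0.011). Gbp3, a guanylate-binding protein, read 7.64, 7.48 and 7.49 against 8.29, 8.41 and 8.47, with its Matrigel mean, 8.39, at the level of the non-fibrillar arrays. Rtp4, an interferon-induced chaperone of membrane receptors, read 9.09, 9.02 and 8.91 against 9.74, 9.77 and 9.99. It was 1.77-fold lower (-0.83 ± 0.081, adjusted p = 0.0067). Ifitm3, which blocks virus entry at membranes, read 11.09, 11.13 and 11.20 against 11.56, 11.60 and 11.68 (-0.47 ± 0.050, adjusted p = 0.0078). Ifi202b, a DNA-binding protein of the interferon-inducible p200 family that stood outside the list, read 8.11, 7.997 and 8.01 against 8.76, 8.97 and 8.82. Ifit3, Gbp3, Rtp4 and Ifi202b, like Irf7, were picked among genes without overlap. Gbp3, Rtp4, Ifitm3 and Ifi202b stayed called whichever array was left out, while Ifit3 lost its call without non-fibrillar replicate 2 or 3 (adjusted p up to 0.0656).

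The effectors called lower also included the ISG15 protease Usp18 (-1.33) and the ISG15-conjugating enzymes Ube2l6 (-0.48) and Herc6 (-0.78), the oligoadenylate synthetase family members Oas1a (-0.63), Oas1b (-0.40), Oasl1 (-0.41) and Oasl2 (-0.66), and the immunity-related GTPase Irgm1 (-0.50). The virion-tethering protein Bst2 (-0.45), the exonuclease Isg20 (-0.34), the nucleotide kinase Cmpk2 (-0.60) and the apoptosis factor Xaf1 (-0.70) were lower too. A probe set for an Oas, Gbp or Ifit gene can pick up its near-identical copies, which makes single members of those families uncertain. Each of these 12 genes lost its call without at least 1 array, Oas1a and Xaf1 only without fibrillar replicate 3 (adjusted p = 0.051 for both), Usp18 without that array or non-fibrillar replicate 2 (adjusted p up to 0.0562), and the others in 4 to 6 refits (adjusted p up to 0.151); Oasl1 lost it after the correction too (adjusted p = 0.056). Rsad2, which makes an antiviral nucleotide, was at -0.69 and did not pass (adjusted p = 0.053; 0.023 with the block).

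Of 21 antigen presentation genes 3 were lower (14.3%), 0 to 2 with an array left out, and 18 did not pass. They were the interferon-inducible proteasome parts Psmb8 (-0.38 ± 0.076, adjusted p = 0.039), Psmb10 (-0.39 ± 0.081, adjusted p = 0.043) and the activator subunit Psme2. In the proteasome list, described below, 12 of 42 genes were lower (28.6%). Psme2 read 11.01, 10.99 and 11.07 in fibrillar and 11.44, 11.31 and 11.48 in non-fibrillar collagen, with no overlap (-0.39 ± 0.053, adjusted p = 0.015). The call of Psmb10 was lost with the block (adjusted p = 0.051) and after the correction (adjusted p = 0.063), and each of the 3 lost its call in 5 or 6 of the refits without 1 array (adjusted p up to 0.141).

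**Figure D3:**
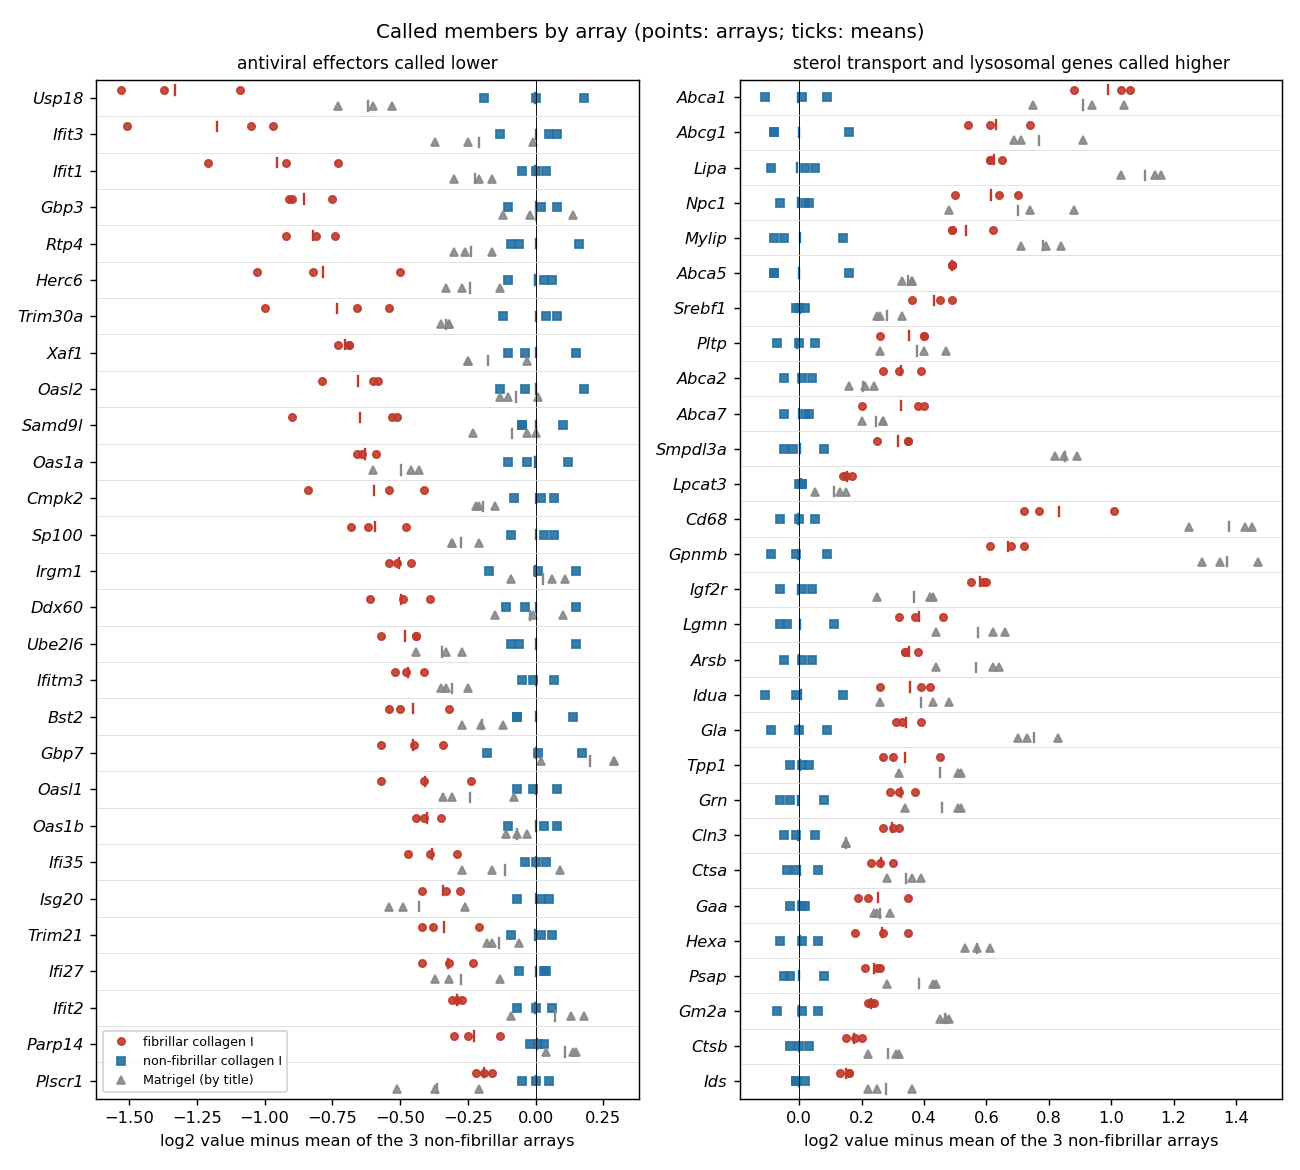
Left, the 28 antiviral effectors called lower; right, the sterol transport and lysosomal genes called higher, each as log2 value minus the mean of the 3 non-fibrillar arrays, with points for arrays and ticks for group means. The fibrillar arrays (red) lie below the non-fibrillar arrays (blue) for each gene on the left and above them for each gene on the right; the Matrigel arrays (gray) lie near the non-fibrillar ones for many antiviral genes and beyond the fibrillar ones for many lysosomal genes.

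Genes that move sterols were higher in fibrillar collagen. Liver X receptors sense oxidized cholesterol and turn on transporters that carry cholesterol and phospholipids out of the cell, the ligase Mylip that removes the LDL receptor, and the lipogenic factor Srebf1. Of 30 measured genes for liver X receptor targets and sterol transport, 12 were higher (40.0%, against 2.71% of all genes) and 18 did not pass, with a median of 0.14. Leaving out single arrays left 4 to 7 higher, fewest without fibrillar replicate 3, and 12 were higher after the correction for span and level.

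Abca1, which loads cholesterol onto apolipoproteins, read 8.90, 9.08 and 9.05 in fibrillar, 7.91, 8.03 and 8.11 in non-fibrillar collagen and 8.93 on average in Matrigel. The fibrillar and Matrigel arrays were alike in level, both above the non-fibrillar ones. Npc1, which takes cholesterol out of lysosomes, read 9.86, 10.06 and 10.005 against 9.30, 9.38 and 9.39, and Lipa, the lysosomal lipase that frees it from its esters, 11.51, 11.51 and 11.55 against 10.92, 10.81 and 10.95. Neither gene had overlapping groups, and Lipa was 1.55-fold higher (0.63 ± 0.046, adjusted p = 0.0042). The half-transporter Abcg1 (0.63 ± 0.085, adjusted p = 0.014), Mylip (0.53 ± 0.070, adjusted p = 0.013), Abca5 (0.49 ± 0.069, adjusted p = 0.015) and the phospholipid transfer protein Pltp (0.36 ± 0.055, adjusted p = 0.019) were higher as well. Abca1, Npc1, Lipa and Srebf1 stayed called whichever array was left out; Abcg1, Mylip, Abca5 and Pltp lost their call in 4 or 5 of the 6 refits (adjusted p up to 0.083). Of 21 cholesterol synthesis genes 2 were lower, Msmo1 (-0.21) and Pmvk (-0.20); the call of Msmo1 was lost with the block (adjusted p = 0.058), and both calls were lost after a further quantile normalization, after the correction (adjusted p = 0.136 and 0.093) and in every refit without 1 array (adjusted p up to 0.133).

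Fatty acid synthesis and storage followed the same direction, with 8 of 50 genes higher (16.0%) and 42 not passed. Fatty acid synthase Fasn read 11.64, 11.66 and 11.67 in fibrillar and 11.23, 11.19 and 11.11 in non-fibrillar collagen. Its fibrillar arrays nearly coincided and lay above all others, the Matrigel mean of 11.28 included (0.48 ± 0.041, adjusted p = 0.0053). Srebf1, its regulator, read 9.75, 9.62 and 9.71 against 9.28, 9.26 and 9.25. Acacb, the acetyl-CoA carboxylase of the mitochondrial surface, was 1.60-fold higher (0.67 ± 0.10, adjusted p = 0.018), and Elovl6, which lengthens fatty acids, 1.19-fold (0.26 ± 0.032, adjusted p = 0.012). Genes that store and release fat were called too, with the droplet coat protein Plin4 at 0.68 ± 0.122 (adjusted p = 0.029), the lipases Lpl at 0.37 ± 0.055 (adjusted p = 0.018) and Pnpla2 at 0.30 ± 0.035 (adjusted p = 0.011). Fasn and Srebf1 stayed called in every refit without 1 array, Pnpla2 lost its call only without non-fibrillar replicate 2 (adjusted p = 0.052), and the others lost it in 3 to 5 refits (adjusted p up to 0.119). Over the list, 1 to 7 genes were higher with an array left out, fewest without non-fibrillar replicate 2.

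Single genes of fuel use and membrane lipids had large differences, while their lists held few calls. Among genes of pyruvate and the citric acid cycle 2 of 43 were higher (4.65%) and 2 lower (4.65%), among flippases and scramblases 1 of 25 was higher (4%) and 2 lower (8%), and among those of fatty acid oxidation and peroxisomes 3 of 44 were higher (6.82%) and 1 lower (2.27%). Atp8b1, a flippase that moves phospholipids to the inner leaflet of the cell membrane, read 6.18, 6.37 and 6.49 in fibrillar and 5.21, 5.26 and 5.43 in non-fibrillar collagen, and 7.03 on average in Matrigel. The arrays titled Matrigel lay above both collagen groups, which were apart by the rule of choice. Ppargc1a, the coactivator that drives mitochondrial and fasting genes, read 7.16, 7.16 and 7.27 against 6.49, 6.42 and 6.32. It was 1.72-fold higher (0.79 ± 0.057, adjusted p = 0.0041). Pdk4, the kinase that shuts pyruvate dehydrogenase, read 8.47, 8.06 and 8.22 against 7.69, 7.24 and 7.54 (0.76 ± 0.143, adjusted p = 0.032), and pyruvate carboxylase Pcx, which refills the citric acid cycle, 8.61, 8.68 and 9.02 against 7.73, 7.81 and 8.16. For these 2 genes the arrays of one number were high or low together in both collagens. The lipid kinase Cerk, which makes ceramide phosphate, was 1.60-fold higher (0.68 ± 0.074, adjusted p = 0.0083). The scramblase Plscr2 was 1.60-fold lower (-0.68 ± 0.112, adjusted p = 0.023). Atp8b1 and Ppargc1a stayed called whichever array was left out, Cerk lost its call without fibrillar replicate 3 or non-fibrillar replicate 2 (adjusted p up to 0.0594), and Pdk4, Pcx and Plscr2 lost it in 5 or 6 refits (adjusted p up to 0.120). Among 34 glycolysis genes 1 was called, Pfkfb2 at 0.16, and not with the block (adjusted p = 0.078) or with any array left out.

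Many lysosomal genes were higher in fibrillar collagen. Lysosomes digest matrix and membrane taken up by the cell, and the factors TFEB and TFE3 switch on their genes through the CLEAR element. Of 57 lysosomal hydrolases and membrane proteins, 19 were higher (33.3%), 1 lower and 37 did not pass, with a median of 0.15; leaving out single arrays left 5 to 12 higher, fewest without fibrillar replicate 3. The CLEAR element, searched as TCACGTGA (a palindrome) in the same promoters, was in 4 of the 17 called-higher members with a promoter (23.5%), 2 of the 32 that did not pass (6.25%), 19 of 424 genes called higher (4.48%), 6 of 594 called lower (1.01%) and 238 of all 15614 (1.52%). The stretches from Cln3, a lysosomal membrane protein (chr7:126583331-126583378, minus strand), and Gla, alpha-galactosidase (chrX:134601173-134601220, minus), lie before the start and show the element in capitals.
Cln3: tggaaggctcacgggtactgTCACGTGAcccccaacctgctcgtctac
Gla: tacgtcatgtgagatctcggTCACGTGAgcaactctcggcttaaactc
Tfeb itself was at 0.23 and did not pass (adjusted p = 0.075).

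Cd68, a glycoprotein of lysosome membranes best known from macrophages, read 8.34, 8.39 and 8.63 in fibrillar, 7.62, 7.56 and 7.67 in non-fibrillar collagen and 8.999 on average in Matrigel. Other macrophage markers were low on every collagen array, with Adgre1 at 3.82 to 4.09, Csf1r at 4.72 to 4.84, Itgam at 4.34 to 4.39, Ptprc at 4.72 to 5.05 and Tyrobp at 5.39 to 5.70, and none of these 5 passed. Gpnmb, a lysosomal glycoprotein induced with TFEB-family genes, read 8.08, 8.15 and 8.19 against 7.46, 7.38 and 7.56. Igf2r, the receptor that carries new hydrolases to lysosomes and clears IGF2 from the surface, read 9.75, 9.71 and 9.76 against 9.17, 9.10 and 9.20, without overlap (1.5-fold higher, 0.59 ± 0.039, adjusted p = 0.0041). Hydrolases with smaller increases were Arsb (0.36), Lgmn (0.38), Tpp1 (0.34), Gla (0.34), Ctsa (0.26) and Hexa (0.26). The protease cathepsin H, Ctsh, was the member called lower (-0.23 ± 0.046, adjusted p = 0.039), a call lost after the correction (adjusted p = 0.057). The proton pump subunit Atp6v0a1 read 10.55, 10.59 and 10.63 against 10.25, 10.23 and 10.20 (0.37 ± 0.038, adjusted p = 0.0077), yet 1 other of 23 pump genes, Atp6v0e, was called lower (-0.22). That call was lost with the block (adjusted p = 0.059) and after the correction (adjusted p = 0.062). Cd68, Gpnmb, Igf2r and Atp6v0a1 stayed called whichever array was left out; Arsb lost its call without fibrillar replicate 3 (adjusted p = 0.051), and the rest in 5 or 6 refits (adjusted p up to 0.142).

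**Figure D4:**
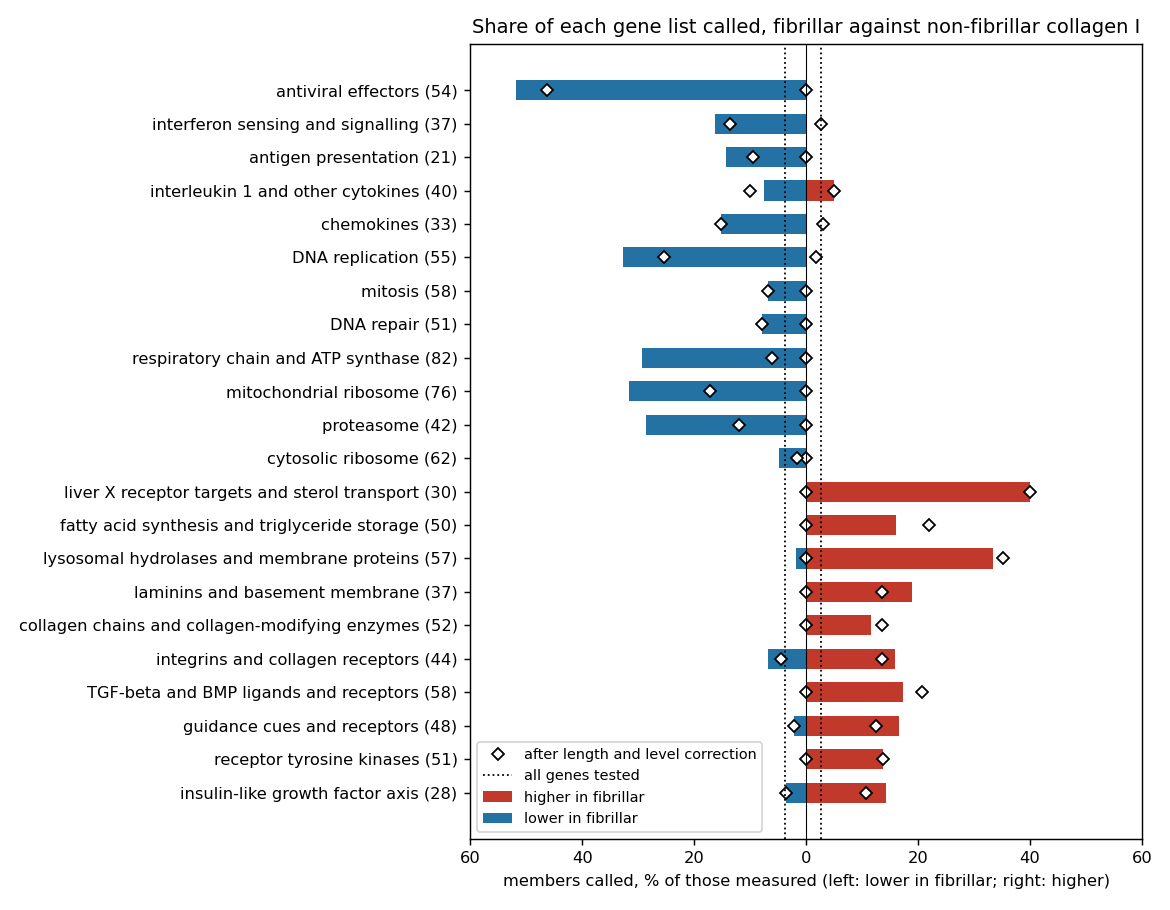
Percentage of the measured members of each gene list (number in brackets) called higher (red, right) or lower (blue, left) in fibrillar collagen; dotted lines mark the same shares over all genes tested, 2.71% and 3.69%, and open diamonds the shares after the correction for span and level. Bars for antiviral and sterol genes reach far past the dotted lines with or without the correction, whereas those for respiratory chain genes shrink with it.

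Several basement membrane genes had higher levels with fibrillar collagen. Laminins are the trimers that organize this sheet, perlecan (Hspg2) is its proteoglycan, and dystroglycan with its long sugar chains is 1 of their receptors. Of 37 laminin and basement membrane genes 7 were higher (18.9%) and 30 did not pass, and 4 were called in each refit without 1 array. Lamb2, the laminin beta-2 chain, read 9.47, 9.42 and 9.51 in fibrillar and 8.93, 8.93 and 8.93 in non-fibrillar collagen. Its Matrigel mean, 9.48, matched the fibrillar arrays. Hspg2 read 8.36, 8.26 and 8.33 against 7.83, 7.77 and 7.81, and Lama5, the laminin alpha-5 chain, 9.92, 9.83 and 9.94 against 9.46, 9.45 and 9.40. Lama3, an alpha chain of the epithelial laminin, was 1.37-fold higher (0.45 ± 0.047, adjusted p = 0.0078). Large2, which builds the laminin-binding sugar of dystroglycan, read 9.35, 9.28 and 9.41 against 8.53, 8.45 and 8.53, and its Matrigel mean of 8.51 lay with the non-fibrillar arrays. Dystroglycan itself, Dag1, was at 0.20 and did not pass (adjusted p = 0.086). Of 26 genes of dystroglycan glycosylation 3 were higher (11.5%), 1 to 2 with an array left out. The median of that list was -0.01, so it had no common direction. Lamb2, Hspg2, Lama5, Lama3 and Large2 stayed called in every refit without 1 array.

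Collagen genes were called in 1 direction, 6 of 52 being higher (11.5%) and 46 not passed. The chains of collagen VI, which forms beaded filaments around cells, read 11.34, 11.34 and 11.34 in fibrillar and 10.94, 10.87 and 11.04 in non-fibrillar collagen for Col6a1, and 11.02, 11.02 and 11.10 against 10.62, 10.53 and 10.67 for Col6a2. Both chains were higher without overlap, at 0.39 ± 0.049 (adjusted p = 0.012) and 0.44 ± 0.050 (adjusted p = 0.0092). Col6a1 was tied to 3 decimals, at 11.343, on the 3 fibrillar arrays, as was Slit2 (below) at 7.915. Ties between some of the fibrillar arrays were found in other named genes too. Among them were Itga7 (10.028), Itga2 (7.204), Mertk (9.002), Lipa (11.513), Dsp (10.407) and Lima1 (7.646). Such ties, and the small SEs that go with them, cannot be read as precision. Why separate arrays tied was not tested. Col5a3, a chain of the collagen that seeds fibrils, was 1.2-fold higher (0.26 ± 0.036, adjusted p = 0.015). The chains of collagen I were at 0.05 for Col1a1 (adjusted p = 0.583) and 0.04 for Col1a2 (adjusted p = 0.711), so no difference in the cells' own collagen I message was detected with 3 arrays per group. Col6a2 lost its call without fibrillar replicate 3 (adjusted p = 0.0562), Col6a1 in 4 and Col5a3 in 5 of the refits (adjusted p up to 0.065), and without fibrillar replicate 3 none of the 6 stayed called.

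Receptors for the matrix went both ways, with 7 of 44 integrins and other matrix receptors higher (15.9%), 3 lower and 34 not passed, and 2 to 3 higher and 1 to 2 lower with an array left out. Itga2, the alpha-2 chain of a collagen I-binding integrin, read 7.20, 7.20 and 7.15 in fibrillar and 7.89, 7.89 and 7.78 in non-fibrillar collagen, and 6.51 on average in Matrigel. The 3 sets of arrays formed separate steps, lowest in those titled Matrigel. Itga7, the alpha chain of a laminin-binding integrin, read 10.03, 10.03 and 10.07 against 9.67, 9.64 and 9.68 (0.38 ± 0.035, adjusted p = 0.0058), and the syndecan Sdc3 10.19, 10.18 and 10.21 against 9.75, 9.84 and 9.83 (0.39 ± 0.038, adjusted p = 0.0067). Neither overlapped. Itgb4 (0.27), part of the laminin receptor of hemidesmosomes, and Itga5 (0.23), a fibronectin receptor chain, were higher by smaller steps. Itga1, the other main collagen-binding alpha chain, was at 0.29 and did not pass (adjusted p = 0.0695). Itga2, Itga7 and Sdc3 stayed called whichever array was left out, and Itgb4 and Itga5 lost their call in all 6 refits (adjusted p up to 0.131).

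Among 72 metalloproteinases, ADAM proteases and their inhibitors, 5 were higher (6.94%) and 1 lower, against 0 to 4 higher and 1 lower with an array left out. The one lower, the metalloproteinase inhibitor Timp1, read 11.97, 12.05 and 12.02 in fibrillar and 12.40, 12.44 and 12.45 in non-fibrillar collagen. The gap was many times the spread within a group (-0.42 ± 0.038, adjusted p = 0.0055), and the call held in every refit without 1 array. Adamts5, which cleaves large proteoglycans, read 8.37, 8.38 and 8.63 against 7.78, 7.71 and 8.04, with replicate 3 the highest in both groups (0.62 ± 0.108, adjusted p = 0.027). Mmp14, the membrane-bound collagenase, was 1.24-fold higher (0.31 ± 0.050, adjusted p = 0.022) and Mmp11, a stromelysin, 1.29-fold (0.37 ± 0.067, adjusted p = 0.030). These 3 lost their call in 5 of the 6 refits (adjusted p up to 0.119). Genes of the serpin B family were mostly lower where called. Serpinb5 (maspin) read 6.87, 6.74 and 6.68 against 7.49, 7.69 and 7.43. Serpinb2, which inhibits urokinase, read 6.85, 6.62 and 6.66 against 7.63, 7.44 and 7.24. Both were lower (-0.77 ± 0.082 and -0.73 ± 0.108, adjusted p = 0.0078 and 0.018). They lost their call in 2 and 4 refits (adjusted p up to 0.090). Of 32 genes of the plasminogen and serpin list 3 were lower in all (0 to 3 with an array left out) and 1 higher, Serpinb8 (0.36), which lost its call in 5 refits (adjusted p up to 0.162).

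TGF-beta is secreted in a latent form tethered to the matrix by LTBP proteins, and BMP signals run through SMAD1, SMAD5 and SMAD9 to the ID genes. Of 58 genes of both pathways 10 were higher (17.2%) and 48 did not pass. The tether Ltbp2 read 8.15, 8.12 and 8.23 in fibrillar and 7.48, 7.61 and 7.50 in non-fibrillar collagen, with no overlap and a Matrigel mean of 8.54. All 3 ligands were called, Tgfb1 at 0.29 ± 0.040 (adjusted p = 0.015), Tgfb2 at 0.46 ± 0.072 (adjusted p = 0.020) and Tgfb3 at 0.38 ± 0.078 (adjusted p = 0.043). Lrrc32, which displays latent TGF-beta on the cell surface, was 1.25-fold higher (0.32 ± 0.052, adjusted p = 0.022). On the BMP side, Smad9 read 6.96, 7.04 and 7.10 against 6.06, 6.60 and 6.19, and Id3, a BMP target that blocks differentiation factors, 10.47, 10.51 and 10.49 against 9.83, 10.23 and 9.94. In both, non-fibrillar replicate 2 lay nearest to the fibrillar arrays. Ltbp2 stayed called in every refit without 1 array, and the others lost their call in 4 to 6 refits (adjusted p up to 0.148). The list held 1 to 4 called genes in those refits, fewest without fibrillar replicate 3.

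Growth factor receptors were called in the same direction, 7 of 51 receptor tyrosine kinases being higher (13.7%), 1 to 4 with an array left out, and 44 not passed. Mertk, which binds bridging proteins on dying cells, read 9.16, 9.002 and 9.002 in fibrillar and 8.43, 8.38 and 8.39 in non-fibrillar collagen. The difference was 0.66 ± 0.052 (1.58-fold higher, adjusted p = 0.0049). Pdgfra, the PDGF receptor alpha, read 10.81, 10.94 and 10.999 against 10.16, 10.12 and 10.44 and was 1.59-fold higher (0.67 ± 0.095, adjusted p = 0.015). Pdgfra also marks fibroblasts, and of the 5 other markers of these cells none passed; on the collagen arrays Col1a1 read 8.55 to 8.71, Col1a2 6.23 to 6.38, Col3a1 6.17 to 6.26, Dcn 4.32 to 4.39 and Lum 3.21 to 3.33. Fgfr1 (0.23), an FGF receptor, and Erbb2 (0.21), the HER2 receptor, were higher by smaller steps. Egfr (0.21) and Erbb3 (0.20) were called, but not with the block (adjusted p = 0.063 and 0.064), and Egfr not after the correction either (adjusted p = 0.216). Mertk alone stayed called whichever array was left out; the others lost their call in 4 to 6 refits (adjusted p up to 0.109).

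Insulin-like growth factors signal through Igf1r and its adaptors and are held back by binding proteins. Igfbp4, which binds IGFs and keeps them from their receptor, read 7.60, 7.30 and 7.34 in fibrillar, 8.57, 8.46 and 8.52 in non-fibrillar collagen and 7.28 on average in Matrigel. The fibrillar and Matrigel arrays shared a level, below the non-fibrillar ones. Irs1, the adaptor of the insulin and IGF receptors, read 10.65, 10.70 and 10.61 against 10.24, 10.30 and 10.15 (0.42 ± 0.050, adjusted p = 0.011). Igf1r, the receptor itself, was at 0.29 and did not pass (adjusted p = 0.064; 0.036 with the block). Of the 28 genes on the list, 4 (14.3%) passed as higher and 1 as lower, and 1 to 2 higher and 1 lower with an array left out. Igfbp4 stayed called in every refit without 1 array, and Irs1 lost its call without fibrillar replicate 2 or 3 (adjusted p up to 0.0545).

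Guidance cues and their receptors, which steer axons and also shape epithelia and vessels, had 8 of 48 genes higher (16.7%), 1 lower and 39 not passed. Sema3e read 8.20, 7.97 and 8.03 in fibrillar and 7.39, 7.48 and 7.42 in non-fibrillar collagen, and its receptor Plxnd1 10.002, 9.91 and 10.09 against 9.46, 9.33 and 9.49. Ligand and receptor were thus both higher (0.64 ± 0.066 and 0.57 ± 0.064, adjusted p = 0.0078 and 0.0092). Neo1, a netrin and BMP co-receptor, read 11.77, 11.81 and 11.78 against 11.42, 11.45 and 11.44, and the repellent Slit2 7.92, 7.92 and 7.92 against 7.55, 7.43 and 7.57. Sema7a, an integrin-binding semaphorin linked to inflammation, was the one lower, at 7.24, 7.28 and 7.43 against 7.96, 8.24 and 8.08 (-0.78 ± 0.084, adjusted p = 0.0082). Neo1 stayed called whichever array was left out; Sema3e and Plxnd1 lost their call without fibrillar replicate 3 (adjusted p = 0.051 and 0.0562), Sema7a without fibrillar replicate 2 (adjusted p = 0.052) and Slit2 without either (adjusted p up to 0.0596). The list fell to 1 higher gene without fibrillar replicate 3.

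Other surface proteins of signalling were called singly. Notch1 read 9.89, 9.91 and 9.997 in fibrillar and 9.36, 9.44 and 9.45 in non-fibrillar collagen (1.43-fold higher, 0.51 ± 0.046, adjusted p = 0.0053) and was the one gene called of 34 in the Notch list. The phosphatase Ptprf, which sits at cell contacts, read 9.18, 9.04 and 9.18 against 8.58, 8.55 and 8.58. Ptpn22, a phosphatase that restrains immune receptor signals, went the other way, at 5.66, 5.55 and 5.33 against 6.61, 6.54 and 6.20. Notch1 and Ptprf had no overlap between the groups, and Ptpn22 was picked among genes without overlap. Of 63 tyrosine and dual-specificity phosphatases 4 were higher (6.35%) and 2 lower, and 1 to 3 higher and 0 to 1 lower with an array left out. Notch1 and Ptprf stayed called in every refit without 1 array, whereas Ptpn22 (-0.94 ± 0.127, adjusted p = 0.014) lost its call in 4 (adjusted p up to 0.077).

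**Figure D5:**
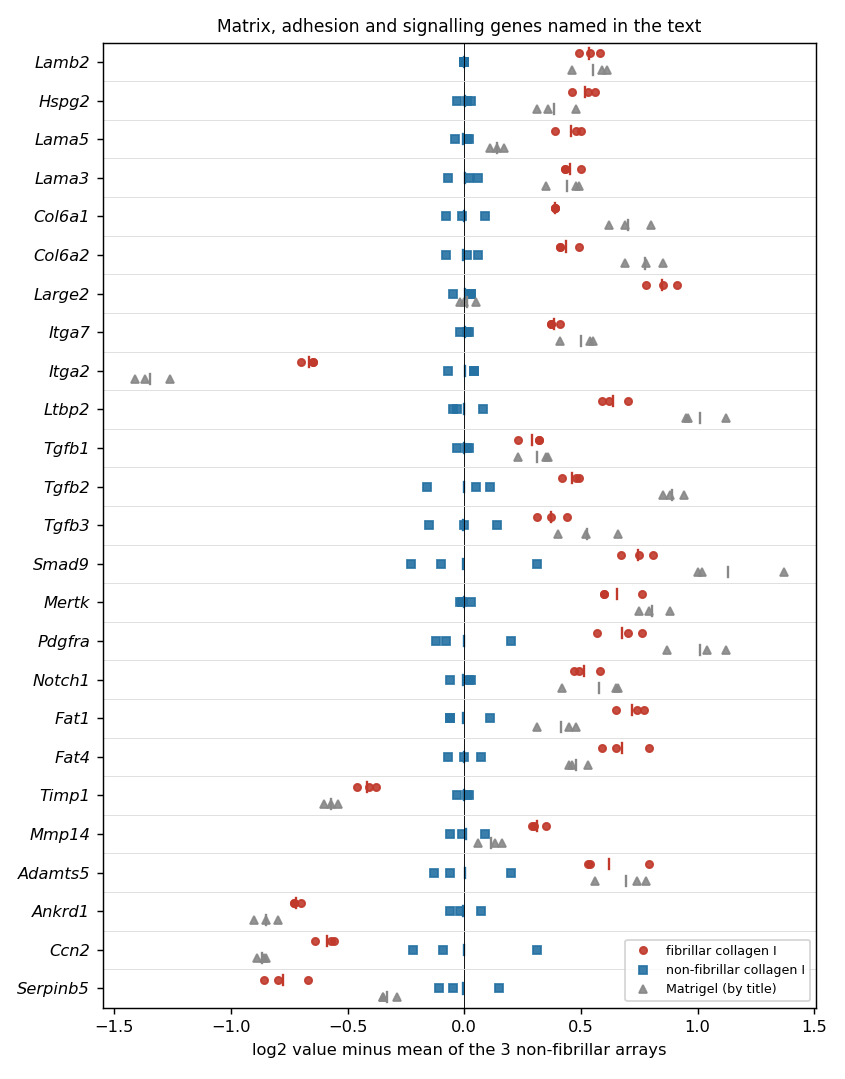
Values by array for 25 matrix, adhesion and signalling genes named in the text, as log2 values minus the mean of the 3 non-fibrillar arrays; points are arrays and ticks are group means. Fibrillar arrays (red) lie above the non-fibrillar ones (blue) for laminin, collagen VI and TGF-beta genes and below them for Itga2, Timp1, Ankrd1, Ccn2 and Serpinb5.

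Chemokine genes were lower where they were called, while called cytokine genes went both ways. Of 40 cytokine genes 3 were lower (7.5%) and 2 higher (5%), with a median difference of -0.02. With an array left out, 0 to 1 were higher and 0 to 3 lower. Of 33 chemokine genes 5 were lower (15.2%), and the median of the list was -0.01. The interleukin Il1a read 9.46, 8.87 and 8.70 in fibrillar and 10.22, 10.003 and 9.90 in non-fibrillar collagen, and 8.07 on average in Matrigel. Fibrillar replicate 1 lay nearest to the non-fibrillar arrays, and the difference was -1.03 ± 0.195 (adjusted p = 0.033). Il6 read 5.65, 5.34 and 5.36 against 6.31, 5.92 and 6.22 (-0.70 ± 0.124, adjusted p = 0.029), and its relative Lif, which acts through the same receptor chain, 6.91, 6.49 and 6.64 against 7.24, 7.18 and 7.25 (-0.54 ± 0.103, adjusted p = 0.034). That shared chain, Il6st, was higher (0.21 ± 0.035, adjusted p = 0.024), as was the macrophage growth factor Csf1 (0.36 ± 0.053, adjusted p = 0.017). The monocyte attractant Ccl2 read 8.61, 8.90 and 8.94 against 9.38, 9.95 and 9.51, and Ccl5, which draws T cells, 8.64, 8.67 and 8.56 against 9.21, 9.16 and 8.98. Ackr3, a scavenging receptor for the chemokine CXCL12, was 1.33-fold lower (-0.41 ± 0.044, adjusted p = 0.0083) and lost its call without fibrillar replicate 3 or non-fibrillar replicate 2 (adjusted p up to 0.0513). The other genes of this paragraph lost it in 5 or 6 refits (adjusted p up to 0.130), and 0 to 3 chemokine genes were lower in those refits.

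Nt5e, the surface enzyme CD73 that makes adenosine from AMP, read 9.99, 9.86 and 9.78 in fibrillar, 10.86, 10.76 and 10.77 in non-fibrillar collagen and 9.13 on average in Matrigel. Its 3 conditions stood apart, and it was 1.89-fold lower than in non-fibrillar collagen (-0.92 ± 0.063, adjusted p = 0.0041). Entpd5, a nucleotidase of the endoplasmic reticulum, read 8.99, 9.01 and 9.05 against 8.51, 8.48 and 8.56. Both stayed called whichever array was left out. Of 25 genes for extracellular nucleotides and adenosine 2 were higher (8.0%) and 1 lower (1 higher and 1 lower with an array left out), the second higher one being the nucleoside carrier Slc29a2 (0.26), which lost its call in all 6 refits (adjusted p up to 0.091).

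YAP and TAZ are the coactivators that respond to tension and cell shape, and Ankrd1 and Ccn2 are among their classical targets. Ankrd1 read 9.56, 9.53 and 9.53 in fibrillar and 10.24, 10.33 and 10.20 in non-fibrillar collagen, and its fibrillar arrays nearly coincided. Ccn2 read 7.60, 7.59 and 7.52 against 8.47, 8.07 and 7.94, with non-fibrillar replicate 1 the highest (-0.59 ± 0.129, adjusted p = 0.0485; not called after the correction, adjusted p = 0.071). Of 38 targets in the list 3 were higher (7.89%) and 3 lower (0 to 3 higher and 2 to 3 lower with an array left out), with a median of 0.09, so the list had no common direction among its called members. Upstream of this pathway, the giant cadherins Fat1 (10.04, 10.01 and 9.92 against 9.38, 9.21 and 9.21) and Fat4 (7.88, 7.68 and 7.74 against 7.16, 7.09 and 7.02) were both higher. Their differences were 0.72 ± 0.060 and 0.68 ± 0.064 (adjusted p = 0.0049 and 0.0066). Lima1, which stabilizes actin bundles, read 7.65, 7.65 and 7.73 against 7.20, 7.23 and 7.30. Ankrd1, Fat1, Fat4 and Lima1 stayed called in every refit without 1 array, and Ccn2 lost its call in 5 (adjusted p up to 0.170).

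Cell contacts and lineage genes held a few clear differences. Gjb2, the gap junction protein connexin 26, read 7.30, 7.41 and 7.25 in fibrillar and 8.25, 8.13 and 8.24 in non-fibrillar collagen, and 7.33 on average in Matrigel. It was 1.86-fold lower (-0.89 ± 0.057, adjusted p = 0.0041), with the Matrigel arrays at the fibrillar level. Desmoplakin Dsp, which anchors keratin filaments to desmosomes, read 10.55, 10.41 and 10.41 against 9.97, 9.95 and 9.86. It was 1.44-fold higher (0.53 ± 0.055, adjusted p = 0.0078). Of 51 claudin, tight junction and desmosome genes 2 were higher and 2 lower (3.92% each), near the background. With an array left out 1 to 2 were higher and 0 to 2 lower. Krt7, a keratin of ductal epithelia, read 10.40, 10.34 and 10.36 against 10.68, 10.67 and 10.66 and was the one keratin called of 48 (-0.30 ± 0.034, adjusted p = 0.0092). Aldh1a3, a retinoic acid-making enzyme of luminal progenitors, read 7.76, 7.83 and 7.79 against 8.41, 8.25 and 8.33. Among 36 genes of mammary differentiation and hormone receptors 4 were higher (11.1%) and 3 lower (0 to 2 higher and 1 to 2 lower with an array left out); Stat5a, the transducer of prolactin, was higher by 0.30 ± 0.063 (adjusted p = 0.046) and the milk protein gene Csn3 lower by 0.35 (-0.35 ± 0.060, adjusted p = 0.026) near the bottom of the scale, at 3.88 to 4.35. Gjb2, Dsp and Aldh1a3 stayed called whichever array was left out, Krt7 lost its call without fibrillar replicate 3 (adjusted p = 0.0502), and Stat5a and Csn3 in 5 or 6 refits (adjusted p up to 0.143).

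DNA replication genes were lower in fibrillar collagen. Of 55 measured 18 were lower (32.7%) and 37 did not pass, with a median of -0.19; 14 were lower after the correction for span and level, 1 to 8 with an array left out, and fewest without fibrillar replicate 3 or non-fibrillar replicate 2. Rfc4, a subunit of the loader of the replication clamp, read 9.64, 9.53 and 9.56 in fibrillar and 9.98, 10.10 and 10.09 in non-fibrillar collagen. Prim2, a subunit of the primase, read 8.28, 8.31 and 8.20 against 8.61, 8.65 and 8.67, and Rpa3, which coats single-stranded DNA, 7.65, 7.92 and 7.74 against 8.38, 8.33 and 8.57. The arrays of the groups did not overlap for any of these, at -0.48 ± 0.049, -0.38 ± 0.042 and -0.66 ± 0.090 (adjusted p = 0.0071, 0.0091 and 0.0145). Cyclin E2, Ccne2, was 1.44-fold lower (-0.53 ± 0.094, adjusted p = 0.028). Of 58 mitosis genes 4 were lower (6.90%), with the spindle checkpoint gene Mad2l1 at -0.38 ± 0.060 (adjusted p = 0.020). Of 51 DNA repair genes 4 were lower (7.84%). With an array left out these counts were 0 to 2 and 0 to 3. Among all genes above the median level, 7.33% of the middle span group were lower. Rfc4 lost its call without fibrillar replicate 3 and Prim2 without non-fibrillar replicate 2 (adjusted p = 0.051 for both), while Rpa3, Ccne2 and Mad2l1 lost it in 4 or 5 refits (adjusted p up to 0.116). Matrigel means were 9.56 for Rfc4, 8.26 for Prim2 and 7.87 for Rpa3, at the level of the fibrillar arrays. The E2F element (TTTCGCGC or TTTGGCGC) was searched in the promoters described above. It was in 2 of the 14 DNA replication genes called lower that had a promoter (14.3%) and in 11 of the 32 that did not pass (34.4%). Among all genes it was in 16 of 594 called lower (2.69%), 4 of 424 called higher (0.943%) and 204 of 15614 in total (1.31%).

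Genes of energy metabolism and protein turnover were called lower in number, and their counts moved with the correction for gene span. In the respiratory chain and ATP synthase 24 of 82 genes were lower (29.3%), and 5 after the correction; leaving out single arrays left 0 to 5, with 0 without fibrillar replicate 3 or non-fibrillar replicate 2. In the mitochondrial ribosome 24 of 76 were lower (31.6%), and 13 after the correction, and in the proteasome 12 of 42 (28.6%), and 5 after it; single-array refits left 2 to 7 and 1 to 3. Ribosome biogenesis had 7 of 38 lower (18.4%), 3 after the correction and 1 to 4 in those refits. The medians kept their sign, at -0.17, -0.21, -0.17 and -0.13 before and -0.11, -0.15, -0.12 and -0.06 after it. Single genes with firm calls were the mitochondrial ribosomal protein Mrpl54, at 9.78, 9.72 and 9.70 in fibrillar and 10.12, 10.09 and 10.16 in non-fibrillar collagen, the proteasome regulator Psmd10, at 10.16, 10.12 and 10.08 against 10.49, 10.45 and 10.48, and the ribosome assembly factor Nip7, at 8.46, 8.44 and 8.40 against 8.84, 8.82 and 8.83. All 3 were lower without overlap (-0.39 ± 0.040, -0.35 ± 0.037 and -0.39 ± 0.034, adjusted p = 0.0071, 0.0079 and 0.0053) and stayed called after the correction and whichever array was left out. Ndufs4, an assembly subunit of complex I, was at -0.39 ± 0.048 (adjusted p = 0.011; 0.0057 after the correction) and lost its call in 4 refits (adjusted p up to 0.062).

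Antioxidant genes were split, with 3 of 43 higher (6.98%) and 6 lower (14%), and 0 to 2 higher and 1 to 3 lower with an array left out. The extracellular superoxide dismutase Sod3 read 6.82, 6.88 and 6.77 in fibrillar and 7.41, 7.54 and 7.58 in non-fibrillar collagen (1.61-fold lower, -0.69 ± 0.056, adjusted p = 0.0049). Heme oxygenase Hmox1 read 10.41, 10.34 and 10.47 against 9.87, 9.95 and 10.10 and was 1.35-fold higher (0.43 ± 0.067, adjusted p = 0.020). Dio2, the selenoenzyme that activates thyroid hormone, read 8.97, 9.06 and 9.17 against 8.07, 8.31 and 8.19. Peg3, a paternally expressed zinc finger gene, read 10.25, 10.57 and 10.49 against 9.55, 9.58 and 9.65. Sod3 and Hmox1 separated the groups, while Dio2 and Peg3 were picked among genes that did. Sod3 and Dio2 stayed called whichever array was left out, Peg3 lost its call without fibrillar replicate 3 (adjusted p = 0.0561) and Hmox1 in 5 refits (adjusted p up to 0.090). Of 36 immediate early genes 2 were higher and 4 lower (11.1%; 0 to 1 higher and 0 to 3 lower with an array left out), among them Errfi1, the feedback inhibitor of EGFR, at -0.39 ± 0.054 (adjusted p = 0.015; lost in 5 refits, up to 0.076).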

How the data were processed

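Per the labels and the submitters' processing notes, RNA of each sample was hybridised to 1 single-colour Affymetrix array, and the authors deposited log2 expression values made with RMA in Affymetrix Power Tools; the build behind them is not given in the sources used here. Of 35512 probe sets, 21789 had a single gene symbol in the platform table, 1621 had several and 12102 were unlisted. Each of 19938 genes was represented by its brightest probe set, judged by the mean of the 9 arrays; 999 genes had several.

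Fibrillar and non-fibrillar arrays were compared by limma (version 3.58.1, run under R 4.3.3), with lmFit and eBayes on 6 arrays, a two-sided test, no covariate and Benjamini-Hochberg adjustment over all 19938 genes. On simulated data of the same size the fit recovered 77% of genes changed by 0.5 and 97% of those changed by 1 (log2), with 3.33% of calls false. The simulated noise was independent between genes and arrays, without the span trend or the shared deviations of same-numbered arrays. The false share of calls in the real arrays can therefore not be read from it. The array numbers come from the titles. Deviations from the group mean correlated at 0.221, 0.143 and 0.242 between arrays of the same number. Between other arrays r ran from -0.204 to -0.012. Deviations from a group mean cancel out over its arrays, so positive values in some pairs force negative ones in others. The numbers were taken as a possible pairing, and a fit with the number as a block was run beside the main one. Values and counts in the text come from the fit without the block unless stated. With the block, 28 antiviral effectors and 17 respiratory chain genes were lower, and 12 sterol transport and 16 lysosomal genes were higher. Without it these counts were 28, 24, 12 and 19.

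Genes named in the text were taken from the 25 largest changes in each direction among called genes without overlap (42 of these 50 are named and all are plotted), called members of the gene lists, the 3 uncalled members of a list with the smallest p, and cell type markers. The genes, lists and markers were chosen with earlier results of these data known. Other alternatives were each array left out, all 9 arrays in the fit, a further quantile normalization, centring on array medians, only genes above the median level, averaged probe sets, a trended robust prior, adjusted p under 0.01 and the correction for gene span and level. Promoter sequences and gene spans are from RefSeq (GRCm38.p6).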

Additional observations from a re-analysis of the deposited data

How the results depend on the processing

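The counts of genes called moved most with the number of arrays and with the threshold. Leaving out 1 array left 76 to 216 genes higher and 74 to 353 lower in fibrillar collagen, at adjusted p under 0.01 there were 84 higher and 84 lower, and among genes above the median level alone 861 and 1356. With the replicate number as a block, 544 genes were higher and 741 lower, and 970 of the 1277 calls were kept. Quantile normalization again gave 712 higher and 665 lower (51.7% higher), centring on array medians 559 and 904 (38.2% higher), and the correction for span and level 575 and 557. All 9 arrays in the fit, a trended robust prior and averaged probe sets gave counts within 1.5 times of the main ones. Of 147 called genes named in the report, 49 stayed called whichever array was left out and 23 lost the call each time; 7 lost it with the block and 9 with the correction. No called gene changed direction. Among uncalled genes near 0, Krt8 changed sign after quantile normalization again (0.00) and after the correction (0.09), and ranged from -0.04 to 0.02 with an array left out, with positive values without fibrillar replicate 2 (0.01), fibrillar replicate 3 (0.01) or non-fibrillar replicate 1 (0.02). Krt18 changed sign after the correction (0.06). With an array left out, Col1a2 ranged from -0.01 (without fibrillar replicate 3) to 0.06, Dcn from -0.03 to 0.01 (without fibrillar replicate 3) and Csf1r from -0.00 (without non-fibrillar replicate 3) to 0.06. With 3 arrays per group, their number limits the precision of each value.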
